A study of Arabidopsis thaliana with 6 samples.

Results

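U1 is the small nuclear RNA (snRNA) that pairs with the 5′ splice site of an intron, and Arabidopsis thaliana carries it in many gene copies. The U1 regions of the deposited depth table were taken by name (atU1 followed by no further digit, which leaves out atU11 and atU12). They are 28 of 150 regions, made of 14 U1 snRNAs of 75 and the 50 bp that follow the 3′ end of each, here called its extension. Of the 14 copies, 10 are not marked as pseudogenes and 4 are (atU1-11p, atU1-12p, atU1-13p and atU1-14p). The 6 libraries came from whole 10-day-old seedlings of the ecotype given as Colombia, grown on MS medium with sucrose: 3 from a genotype labelled CPL4 knockdown, made by RNA interference, and 3 from wild type. CPL4 is a phosphatase of the RNA polymerase II C-terminal domain, and the series title links it and salt stress to a switch between snRNA and mRNA transcription. None of these libraries is labelled as salt-treated, and the sources used here do not name the promoter of the RNA interference construct or the number of lines. The series' design text calls the libraries biological triplicates. Total RNA was depleted of ribosomal RNA and sequenced as pairs of 100-bp reads.

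U1 genes are read by RNA polymerase II, yet not in the manner of mRNA genes. The polymerase starts at a promoter with an upstream sequence element and a TATA box, and the transcript is cut shortly after the mature 3′ end instead of being polyadenylated. The mature RNA binds a ring of Sm proteins at its Sm site and then the U1-specific proteins, and the particle marks 5′ splice sites for the spliceosome. Reads that lie past the mature 3′ end come from RNA that has not been cut there or from another transcript of the region, and the depth table does not tell these apart.

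The FPKM of the target of the RNA interference was not lower under its label. An FPKM does not tell reads of the CPL4 gene from any reads of the construct, so a reduction of CPL4 mRNA was not tested. CPL4 (AT5G58003) stood at 8.84 FPKM in the labelled knockdown and at 4.92 FPKM in wild type (the authors' deposited table, q = 6.39e-04), so "labelled knockdown" here means only the libraries that carry that label. Each library's depth is known only over the snRNA regions: without atU5-13, it summed to 1462519, 2718072 and 274395 in labelled knockdown libraries 1, 2 and 3, against 2179464, 7534954 and 4820223 in wild type libraries 1, 2 and 3. A pair of libraries stood apart over U1. Labelled knockdown 3 had the lowest depth, and U1 made up 16.8% of its snRNA depth, against 69.8% and 66.8% in labelled knockdown 1 and 2 and 34.5%, 56.5% and 70.5% in wild type 1, 2 and 3. Wild type 1 drew 95.0% of its U1 depth from atU1-6 and atU1-7, where no other library drew more than 66.1%. Results below are given with and without these libraries where they turn on them.

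The snRNAs shown first are atU1-5/U1A and atU1-6, which are among the 3 deepest copies, and atU1-12p, the pseudogene copy with reads in all 6 libraries. They are RefSeq sequences of TAIR10.1, read 5′ to 3′ at the file's coordinates. Capitals in the snRNAs mark ACTTACCTG, which pairs with the 5′ splice site, and the Sm site ATTTNTGG. atU1-5/U1A lies at chr1:2538076-2538241 on the minus strand, atU1-6 at chr3:1681806-1681971 on the plus strand, and the pseudogene copy atU1-12p at chr4:12298789-12298948 on the minus strand.
atU1-5/U1A: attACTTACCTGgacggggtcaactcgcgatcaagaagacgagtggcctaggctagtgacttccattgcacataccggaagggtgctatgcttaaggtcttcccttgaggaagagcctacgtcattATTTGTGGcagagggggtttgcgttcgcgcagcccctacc
atU1-6: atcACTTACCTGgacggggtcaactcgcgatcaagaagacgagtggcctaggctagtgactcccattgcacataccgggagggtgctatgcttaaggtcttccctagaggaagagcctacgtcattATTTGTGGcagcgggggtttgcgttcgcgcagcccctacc
atU1-12p: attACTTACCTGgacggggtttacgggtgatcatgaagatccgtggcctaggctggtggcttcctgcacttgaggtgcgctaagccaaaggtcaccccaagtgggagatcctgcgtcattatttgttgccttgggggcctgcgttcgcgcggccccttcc
ACTTACCTG is present in 10 of 10 non-pseudogene U1 copies, in 3 of 4 pseudogene copies and in 0 of 61 snRNAs of other families. The Sm site letters are present in 10 of 10 non-pseudogene copies, in 1 of 4 pseudogene copies (atU1-13p) and in 26 of the 61 others.

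The 10 non-pseudogene snRNAs are 164 to 166 bases long and share 84.3% to 100% of aligned bases over their 45 pairs, with a median of 91.0%. atU1-7 (chr3:1657757-1657922, plus strand) has the same 166 bases as atU1-6, and those bases occur at no other place in the nuclear genome. Each of the other copies occurs at 1 place. To atU1-5/U1A, identity was 97.0% for atU1-6 and atU1-7, 95.8% for atU1-2, 89.2% for atU1a and for atU1-10, and 75.9% for atU1-12p. A read inside atU1-6 therefore cannot be told from one inside atU1-7, and short reads of other copies may match several. The sources used here do not say how reads with several matches were placed, so the snRNA depth of a single U1 copy is uncertain.

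The extensions of the 10 non-pseudogene copies and of atU1-12p are printed because the main comparison is made over these 50 bases, which follow the mature 3′ end without a gap. Capitals mark AGTNNAA, given as the core of a plant snRNA 3′ signal, and AGTCT, a word picked after the sequences had been seen.
atU1a extension, chr5:19885882-19885931, minus strand: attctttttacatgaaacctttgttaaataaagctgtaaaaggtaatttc
atU1-2 extension, chr4:12225777-12225826, plus strand: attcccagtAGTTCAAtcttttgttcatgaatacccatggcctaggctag
atU1-3 extension, chr5:20996924-20996973, plus strand: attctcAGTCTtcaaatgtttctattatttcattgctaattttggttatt
atU1-4 extension, chr5:8972754-8972803, minus strand: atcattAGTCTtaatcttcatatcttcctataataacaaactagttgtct
atU1-5/U1A extension, chr1:2538026-2538075, minus strand: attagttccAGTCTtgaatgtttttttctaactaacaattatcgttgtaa
atU1-6 extension, chr3:1681972-1682021, plus strand: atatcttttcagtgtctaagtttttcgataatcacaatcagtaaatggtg
atU1-7 extension, chr3:1657923-1657972, plus strand: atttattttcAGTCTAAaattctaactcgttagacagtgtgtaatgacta
atU1-8 extension, chr5:9832737-9832786, plus strand: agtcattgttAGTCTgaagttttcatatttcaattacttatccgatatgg
atU1-9 extension, chr5:9494377-9494426, minus strand: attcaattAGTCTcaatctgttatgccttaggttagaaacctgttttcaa
atU1-10 extension, chr1:4007187-4007236, minus strand: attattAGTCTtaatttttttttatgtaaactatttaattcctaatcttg
atU1-12p extension, chr4:12298739-12298788, minus strand: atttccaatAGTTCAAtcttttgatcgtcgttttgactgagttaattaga
Set side by side without gaps, the extensions of 2 non-pseudogene copies share 12 to 26 of 50 letters over the 45 pairs, with a median of 38.0%. Every 20-base word of these 11 extensions occurs once in the nuclear genome. A read that spans at least 20 extension bases can thus be assigned to a copy. Untrimmed reads of 100 bp are longer than the extension and also cover bases beside it. Reads with fewer extension bases may match several copies. atU1-6 and atU1-7, alike in the snRNA, share 26 of 50 extension letters. AGTNNAA was found in 2 of the 10 (atU1-2 and atU1-7), in 32 of all 75 extensions and, on the sense strand, in 8.54% of the 50 bases after 27432 protein-coding genes. AGTCT was found in 7 of the 10, in 0 of 4 pseudogene extensions, in 10 of 61 extensions of other families and in 4.46% of the bases after protein-coding genes.

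Upstream, the 90 bases before the snRNA are shown for the pair of twin copies, for atU1-10, which has no exact match to the element, and for atU1-12p. Capitals mark the upstream sequence element core CCCACATCG and TATAAA.
atU1-6 upstream, chr3:1681716-1681805, plus strand: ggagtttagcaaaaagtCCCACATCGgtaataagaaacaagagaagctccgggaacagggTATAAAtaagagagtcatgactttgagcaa
atU1-7 upstream, chr3:1657667-1657756, plus strand: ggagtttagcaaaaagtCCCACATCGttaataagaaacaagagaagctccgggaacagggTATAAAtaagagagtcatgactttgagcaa
atU1-10 upstream, chr1:4007401-4007490, minus strand: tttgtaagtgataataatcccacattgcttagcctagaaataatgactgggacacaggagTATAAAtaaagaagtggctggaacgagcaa
atU1-12p upstream, chr4:12298949-12299038, minus strand: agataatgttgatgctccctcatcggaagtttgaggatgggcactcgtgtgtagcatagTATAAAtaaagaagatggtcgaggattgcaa
Within 250 bases before the snRNA and on the sense strand, CCCACATCG stood in 9 of 10 non-pseudogene U1 copies, in 0 of 4 pseudogene copies and in 46 of 61 copies of other families. Of 27432 protein-coding genes, 18 held it there (0.0656%), and 42 held it on either strand. In the 9 copies its first base lay 72 to 74 bases before the snRNA. Exact matches alone were counted, and the printed bases of atU1-10 (cccacattg) and atU1-12p (ccctcatcg) hold near matches. TATAAA stood in 8 of 10 on the sense strand and in 9 of 10 on either strand, against 32.9% and 47.3% of protein-coding genes. In copies of other families it stood in 44 and 51 of 61, and in U1 pseudogene copies in 2 and 3 of 4. The printed upstream bases of atU1-6 and atU1-7 share 89 of 90 letters, and those of atU1-2 and atU1-12p share 72 of 90.

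**Figure D1:**
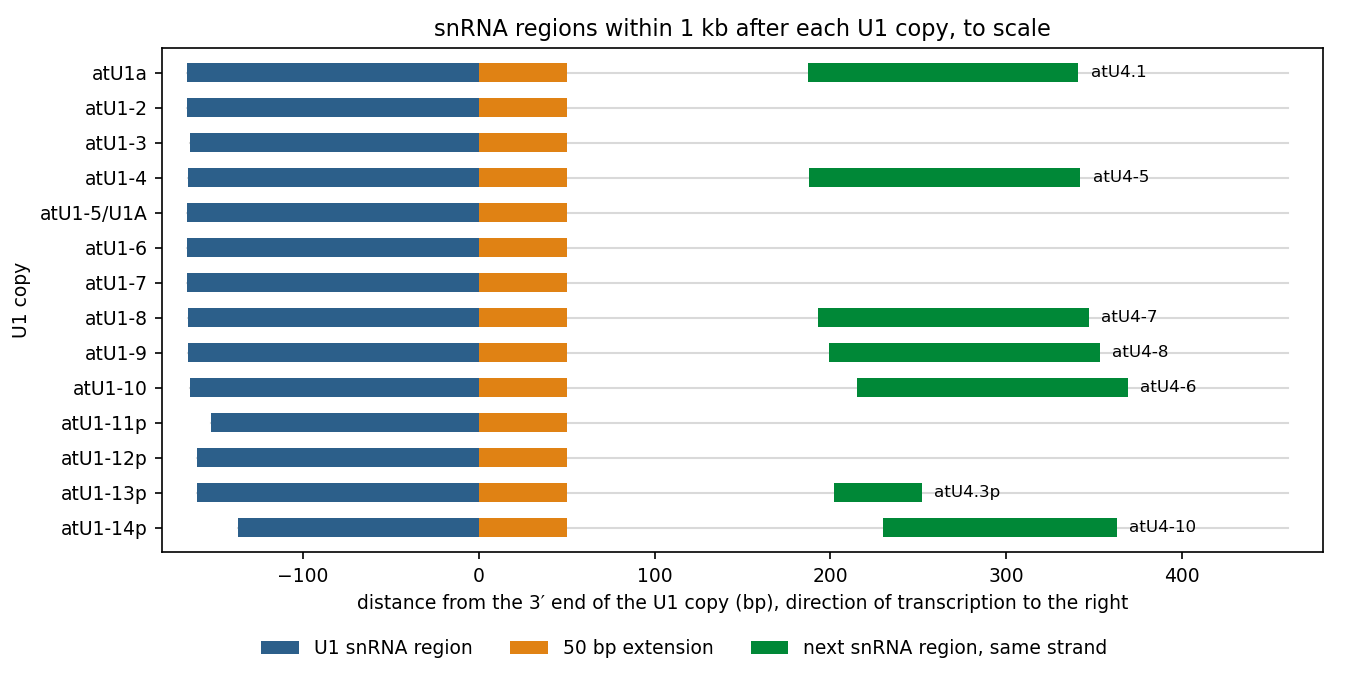
The horizontal axis gives the distance in bp from the 3′ end of each U1 copy, in its direction of transcription, and each row is a U1 copy drawn to scale with its snRNA, its 50 bp extension and any snRNA region that follows on the same strand within 1 kb. A U4 copy follows 7 of the 14 copies, 188 to 231 bp after the U1 3′ end.

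In the genome a U4 snRNA, the RNA that base-pairs with U6 in the tri-snRNP, follows several U1 copies on the same strand. It begins 188 bp after atU1a (atU4.1), 189 bp after atU1-4 (atU4-5), 194 bp after atU1-8 (atU4-7), 200 bp after atU1-9 (atU4-8) and 216 bp after atU1-10 (atU4-6). Among pseudogene copies, atU4.3p begins 203 bp after atU1-13p and atU4-10 begins 231 bp after atU1-14p. No snRNA of the depth table follows atU1-2, atU1-3, atU1-5/U1A, atU1-6, atU1-7, atU1-11p or atU1-12p within 1 kb, as the map of snRNA regions shows.

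Depth over the mature U1 copies overlapped between the genotypes. Summed read depth is the sum over a region's bases of the reads that cover each base, with no scaling by library. Over the 10 non-pseudogene snRNAs it was 1021127, 1816886 and 45983 in labelled knockdown 1, 2 and 3, against 752555, 4257594 and 3399175 in wild type 1, 2 and 3. The means were 961332 ± 886964 in the labelled knockdown and 2803108 ± 1826964 in wild type (SD, n = 3 each), 0.343-fold, and the groups overlapped. With libraries scaled to the median ratio over regions with reads in all 6 libraries, this fold was 0.780, and with scaling by summed snRNA depth it was 0.950.

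**Figure D2:**
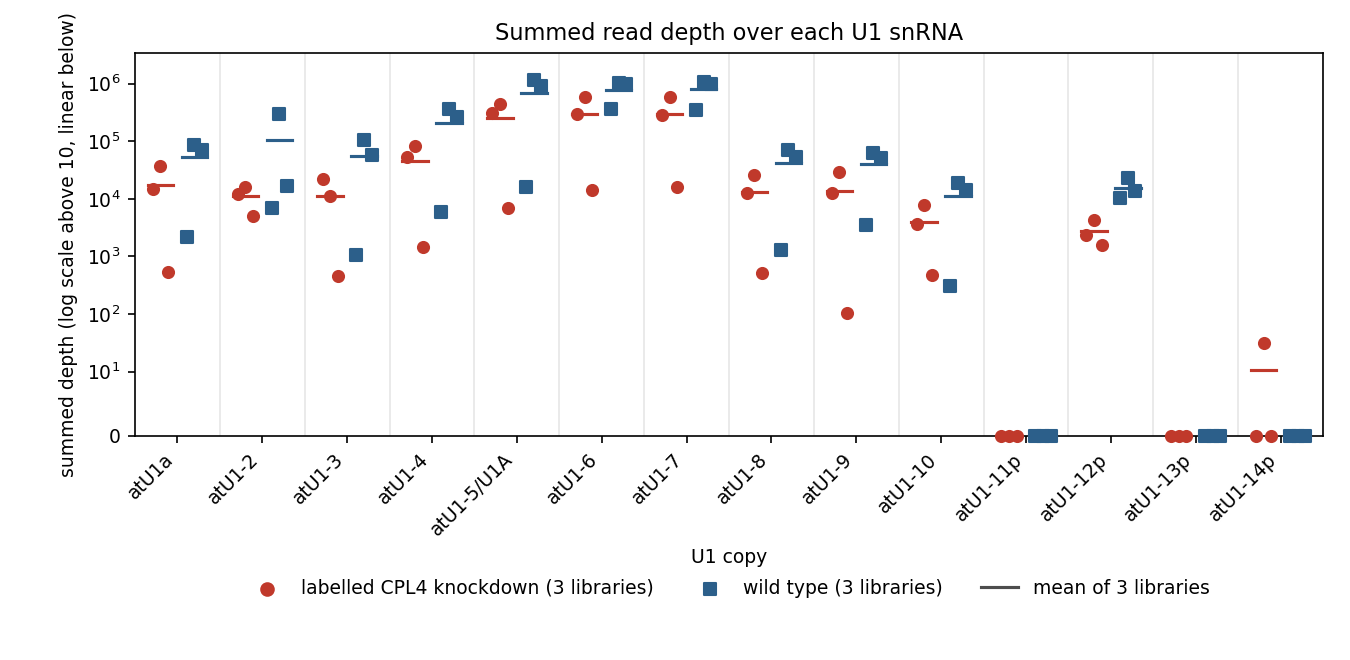
The vertical axis gives summed read depth over each U1 snRNA (log scale above 10, linear below), with a point for each library and a line for the mean of 3, labelled CPL4 knockdown left of wild type for each copy. The groups overlap in all 10 non-pseudogene copies, and atU1-12p is the copy whose labelled knockdown libraries all lie below wild type.

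Depth was concentrated in 3 copies, atU1-5/U1A, atU1-6 and atU1-7, which had the 3 highest depths per base in each of the 6 libraries. atU1-5/U1A held 310658, 436044 and 6953 in labelled knockdown 1, 2 and 3, against 16401, 1147446 and 911139 in wild type. Wild type 1 was therefore near the low labelled knockdown 3 for this copy. atU1-6 held 293925, 585668 and 14473 in the labelled knockdown, against 359284, 1044179 and 971170 in wild type. Its twin atU1-7 held 285062, 584495 and 15901, against 355637, 1065750 and 988633 in wild type. For both twins wild type 1 lay inside the range of the labelled knockdown. The ratio of atU1-7 to atU1-6 snRNA depth was 0.970, 0.998 and 1.10 in the labelled knockdown and 0.990, 1.02 and 1.02 in wild type, near 1 in all 6 libraries.

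A second tier of copies followed at lower depth. atU1-4 (chr5:8972804-8972968, minus strand) held 53940, 81836 and 1471 in the labelled knockdown, against 5974, 358407 and 263218 in wild type. atU1a (chr5:19885932-19886097, minus strand) held 14844, 37897 and 544, against 2220, 85578 and 70782 in wild type. In both, labelled knockdown 3 was lowest and wild type 1 next, with wild type 2 and 3 above every labelled knockdown library. atU1-3 (chr5:20996760-20996923, plus strand) held 22100, 11441 and 462 in the labelled knockdown, against 1060, 107259 and 58825 in wild type. atU1-8 (chr5:9832572-9832736, plus strand) held 12454, 26344 and 512, against 1319, 71771 and 52665 in wild type. atU1-9 (chr5:9494427-9494591, minus strand) held 12452, 29092 and 104, against 3475, 63728 and 51501 in wild type. These 3 copies showed the same order of libraries at the low end. atU1-10 (chr1:4007237-4007400, minus strand) held 3661, 7678 and 469, against 311, 18790 and 14366 in wild type, and was the lowest non-pseudogene copy per base in all libraries but labelled knockdown 3, where atU1-9 was.

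atU1-2 (chr4:12225611-12225776, plus strand) had the same order of libraries, but with a much wider gap between wild type libraries. It held 12031, 16391 and 5094 in the labelled knockdown, against 6874, 294686 and 16876 in wild type, so 1 wild type library lay far above the other 5. It made up 10.7% of all U1 snRNA depth in labelled knockdown 3 and 6.88% in wild type 2, and 0.495% to 1.18% in the other 4 libraries. The copy lies inside the deposited locus of AT4G23420, which stood at 9.37 FPKM in the labelled knockdown and 50.3 FPKM in wild type (the authors' deposited table, log2 ratio −2.42, q = 6.39e-04). That table gives no value per library, and the part of the atU1-2 reads in that call was not tested. The locus of atU1-5/U1A (AT1G08115) stood at 9304 FPKM in the labelled knockdown and 12058 FPKM in wild type (the authors' deposited table, log2 ratio −0.37, q = 0.0981), which was not called.

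**Figure D3:**
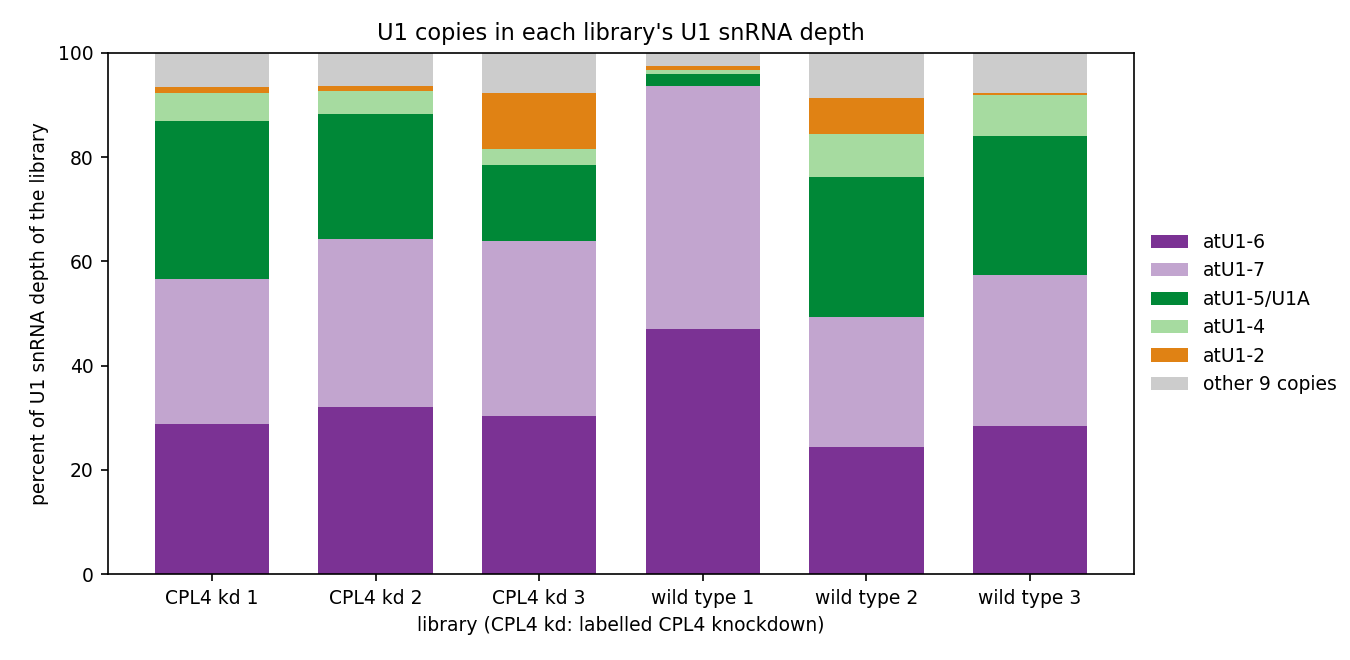
Each bar is a library, labelled CPL4 knockdown first, and the vertical axis gives the percent of its U1 snRNA depth, over all 14 copies, that falls on each copy. In wild type 1, atU1-6 and atU1-7 hold 47.1% and 46.6% and atU1-5/U1A holds 2.15%, against 14.6% to 30.4% for atU1-5/U1A in the other 5 libraries.

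Between genotypes, limma on log2(summed depth + 1), with Benjamini-Hochberg adjustment over all 150 regions, called 0 of the 10 non-pseudogene U1 snRNAs in either direction, where 22.7% of all 75 snRNA regions were called lower, and none of the 10 had an unadjusted p under 0.05. The log2 differences, labelled knockdown minus wild type, ran from −2.74 (atU1-9, SE 2.72) to −0.89 (atU1-10, SE 2.15), with adjusted p from 0.413 to 0.887 by that limma test. Their median was −1.88, beside −1.95 over all 75 snRNA regions. All 10 were negative without scaling, but with median-ratio scaling 4 were positive and 6 negative, and with scaling by summed snRNA depth 6 were positive. The sign of a U1 snRNA difference thus depended on the scaling. With standard errors of 1.59 to 2.72 on the log2 scale, a difference of several-fold in a U1 snRNA was not detectable in these libraries.

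Of the 14 U1 snRNAs, 1 was called lower, the pseudogene copy atU1-12p. It held 2335, 4278 and 1582 in the labelled knockdown, against 10360, 23205 and 13539 in wild type, and the groups did not overlap (log2 difference −2.56, SE 0.51, limma with Benjamini-Hochberg adjustment, adjusted p = 0.0320). The groups did not overlap in 41.3% of all snRNA regions (labelled knockdown lower), and in 0 of the 10 non-pseudogene U1 copies. The call for atU1-12p held in 5 of 14 alternative settings, with limma adjusted p from 0.0239 to 0.722, and was lost with either scaling and without labelled knockdown 1 or 3 or any wild type library. atU1-14p had a depth of 32 in labelled knockdown 2 and 0 elsewhere, and atU1-11p and atU1-13p were at 0 in all 6 libraries.

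Extension depth did not overlap between the genotypes when summed over copies. Over the 10 non-pseudogene copies they summed to 6039, 10037 and 3830 in labelled knockdown 1, 2 and 3, against 168, 109 and 292 in wild type, so the lowest labelled knockdown library lay far above the highest wild type library. The means were 6635 ± 3146 in the labelled knockdown and 190 ± 93.4 in wild type (SD, n = 3 each), a ratio of 35.0. Without atU1-5/U1A, which holds the largest share, the ratio was 17.7, and with the libraries scaled it was 105 (median ratio) and 143 (summed snRNA depth). Separate groups were not particular to U1. All 74 extensions but atU5-13, U1 included, summed to 15106, 20906 and 9016 in the labelled knockdown, against 671, 801 and 1003 in wild type. Their unscaled ratio was 18.2, near that of U1 without atU1-5/U1A. The 50 bp extension has few reads in wild type: a read that covers it whole adds 50, so 109 to 292 stands for a handful of reads over 10 copies. U1 made up 40.0%, 48.0% and 42.5% of all extension depth in the labelled knockdown, against 25.0%, 13.6% and 29.1% in wild type (without atU5-13).

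**Figure D4:**
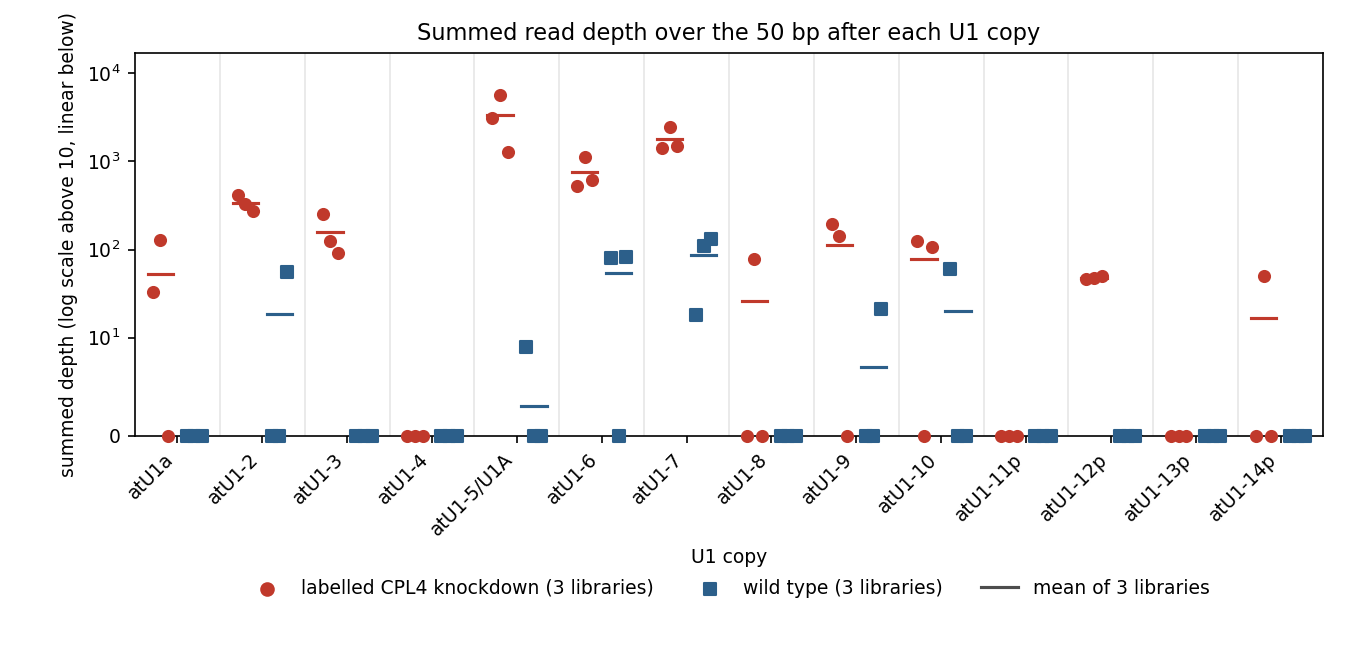
The vertical axis gives summed read depth over the 50 bp after each U1 copy (log scale above 10, linear below), with a point for each library and a line for the mean of 3, labelled CPL4 knockdown left of wild type. In atU1-2, atU1-3, atU1-5/U1A, atU1-6, atU1-7 and atU1-12p every labelled knockdown library lies above every wild type library, and atU1-4 has no reads in any.

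Most of that depth came from 3 copies. The atU1-5/U1A extension held 3073, 5679 and 1265 in the labelled knockdown, against 9, 0 and 0 in wild type. atU1-7 held 1414, 2450 and 1482 in its extension, against 18, 109 and 133 in wild type. atU1-6 held 527, 1112 and 613, against 81, 0 and 82 in wild type. For these 3 the groups were well apart, and labelled knockdown 2 was the highest library in each. limma with Benjamini-Hochberg adjustment called the atU1-5/U1A extension higher (log2 difference 10.35, SE 1.21, adjusted p = 0.00692). It also called the atU1-7 extension higher (log2 difference 4.72, SE 0.88, adjusted p = 0.0266). The atU1-6 extension, with a log2 difference of 5.23 and SE 2.04, was not called (limma, Benjamini-Hochberg adjusted p = 0.166). Where a wild type library is at 0, such a log2 difference depends on the added 1 and is no estimate of a fold.

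Smaller extensions with reads in all labelled knockdown libraries belong to atU1-2 and atU1-3. The atU1-3 extension held 253, 126 and 91 in the labelled knockdown and was at 0 in the 3 wild type libraries, and was called higher (log2 difference 7.17, SE 0.41, limma with Benjamini-Hochberg adjustment, adjusted p = 8.84e-04). The atU1-2 extension held 420, 324 and 273, against 0, 0 and 56 in wild type. Its groups did not overlap, yet it was not called (log2 difference 6.44, SE 1.86, limma with Benjamini-Hochberg adjustment, adjusted p = 0.0851). The high atU1-2 snRNA depth of wild type 2 had no counterpart in its extension, which was at 0 there.

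In the other 5 non-pseudogene copies the groups overlapped, and none was called with all 6 libraries. Without labelled knockdown 3 the atU1a extension was called higher. The atU1-9 extension held 193, 141 and 0 in the labelled knockdown, against 0, 0 and 21 in wild type. That of atU1-10 held 126, 0 and 106, against 60, 0 and 0 in wild type, and that of atU1a held 33, 127 and 0, with wild type at 0. atU1-8 had 78 in labelled knockdown 2 and 0 in the other 5 libraries. The atU1-4 extension was at 0 in all 6 libraries although the atU1-4 snRNA was the fourth deepest U1 copy per base in 4 of them. By limma with Benjamini-Hochberg adjustment the adjusted p of atU1a, atU1-8, atU1-9 and atU1-10 ran from 0.255 to 0.618.

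Of the pseudogene copies, atU1-12p had 46, 47 and 50 in its extension in the labelled knockdown and 0 in the 3 wild type libraries, and was called higher (log2 difference 5.60, limma with Benjamini-Hochberg adjustment, adjusted p = 6.25e-07). These depths are what about 1 read gives in each library, and the small standard error of 0.043 reflects that the 3 values were alike, not that they were deep. The snRNA of the same copy was the 1 called lower. atU1-14p had 50 in labelled knockdown 2 and 0 elsewhere, and the extensions of atU1-11p and atU1-13p were at 0 throughout.

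In all, 4 of 14 U1 extensions were called higher and 0 lower (5 higher at an unadjusted p under 0.05), where 20.0% of all 75 extensions were called higher. The groups did not overlap, labelled knockdown higher, in the atU1-12p extension and in 5 of the 10 non-pseudogene U1 extensions. Over all families, pseudogene copies included, it was 24 of 75 (32.0%). Of the 75, 18 were at 0 in every library and could not be apart, 3 of them U1. The share of the 10 is therefore not on like terms with that of the 75. The median log2 difference was 4.38 over the 10 and 3.73 over the 14, beside 2.10 over all 75 extensions. In wild type, 8 of the 14 U1 extensions were at 0 in each of the 3 libraries. The number of U1 extensions with any reads was 9, 10 and 7 in the labelled knockdown, against 4, 1 and 4 in wild type. The atU1-5/U1A call held in 13 of 14 alternative settings and the atU1-3 call in 14 of 14. The atU1-7 call held in 8 of 14, with limma adjusted p from 0.00796 to 0.109 after Benjamini-Hochberg adjustment, and was lost without any 1 library other than wild type 1. The atU1-6 extension was called in 2 of 14 settings and that of atU1-2 in 4 of 14, among them without wild type 3, its 1 wild type library with reads. With the replicate number as a block the calls were atU1-3 and atU1-12p.

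Set against its own snRNA within a library, U1 extension depth was higher in the labelled knockdown in every library. Summed over the 10 non-pseudogene copies it was 0.591%, 0.552% and 8.33% of snRNA depth in labelled knockdown 1, 2 and 3, against 0.0223%, 0.00256% and 0.00859% in wild type. The labelled knockdown mean was 283 times that of wild type with all libraries and 51.3 times without labelled knockdown 3, whose value rests on its low snRNA depth. Wild type 1, the library of unusual copy shares, had the highest wild type value.

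**Figure D5:**
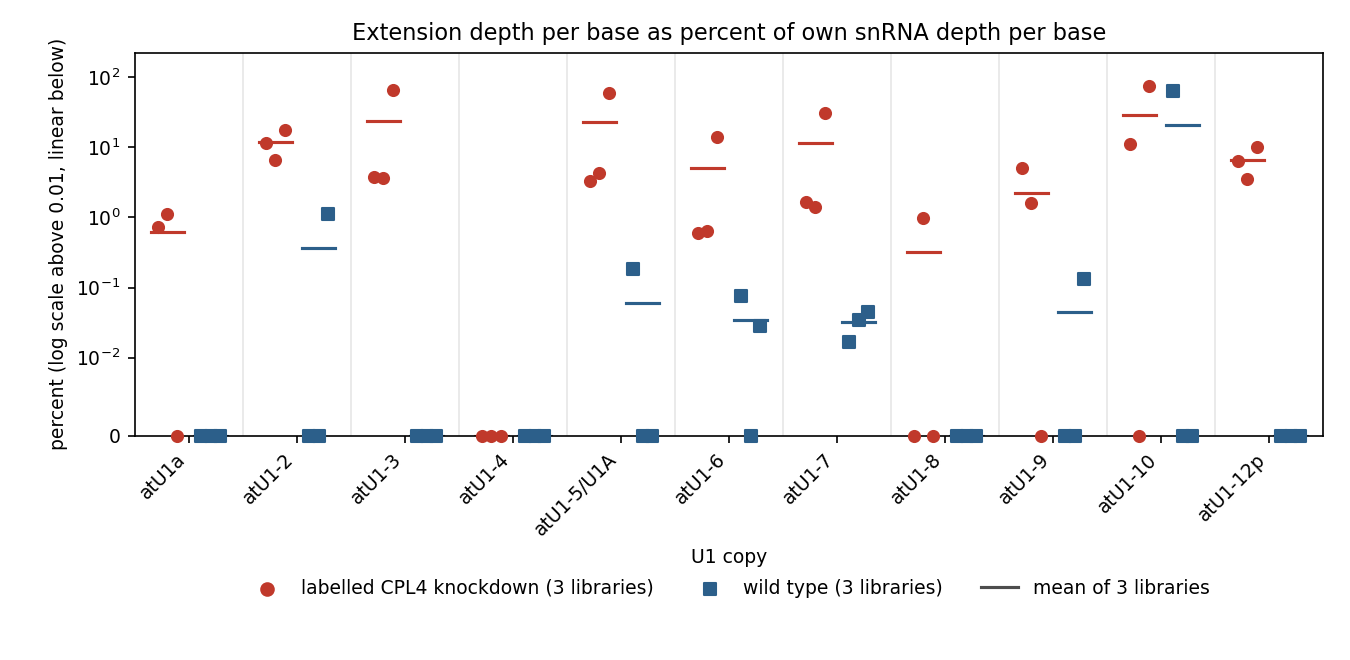
The vertical axis gives extension depth per base as a percent of the depth per base of the same copy's snRNA (log scale above 0.01, linear below), with a point for each library and a line for the mean of 3, labelled CPL4 knockdown left of wild type. atU1-11p, atU1-13p and atU1-14p are not drawn because their snRNA is at 0 in some libraries, and labelled knockdown 3 is the highest point in atU1-2, atU1-3, atU1-5/U1A, atU1-6, atU1-7, atU1-10 and atU1-12p.

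Per base, the percentage differed between copies as well as genotypes. The atU1-5/U1A extension stood at 3.28%, 4.32% and 60.4% of its snRNA in the labelled knockdown, against 0.182%, 0 and 0 in wild type. atU1-7 stood at 1.65%, 1.39% and 30.9%, against 0.0168%, 0.0340% and 0.0447% in wild type, and atU1-6 at 0.595%, 0.630% and 14.1%, against 0.0749%, 0 and 0.0280%. In labelled knockdown 1 and 2 the order was atU1-5/U1A over atU1-7 over atU1-6. It rests on the snRNA depths of single copies, which are uncertain. atU1-2 stood at 11.6%, 6.56% and 17.8%, against 0, 0 and 1.10% in wild type, and atU1-3 at 3.75%, 3.61% and 64.6%, with wild type at 0. atU1-9 stood at 5.11%, 1.60% and 0, against 0, 0 and 0.135% in wild type. For atU1a it was 0.738%, 1.11% and 0, above atU1-6 in labelled knockdown 1 and 2, and for atU1-8 it was 0, 0.977% and 0. Both had wild type at 0, and atU1-4 was at 0 in all 6 libraries. atU1-10 reached 63.3% in wild type 1 as well as 74.1% in labelled knockdown 3, the libraries where its snRNA depth per base was 1.90 and 2.86.

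The twins atU1-6 and atU1-7 are the closest comparison the family offers, with equal snRNAs and 89 of 90 shared upstream letters. The ratio of atU1-7 to atU1-6 extension depth was 2.683, 2.203 and 2.418 in labelled knockdown 1, 2 and 3, above 1 in each. In wild type it was 0.222 in replicate 1 and 1.62 in replicate 3, and atU1-6 was at 0 in replicate 2. The wild type ratios rest on depths of 18 to 133, a few reads each, so no difference between the genotypes in this ratio was detectable. The ratio of atU1-5/U1A to atU1-7 extension depth was 2.17, 2.32 and 0.854 in the labelled knockdown, while that of their snRNAs was 1.09, 0.746 and 0.437.

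The ratio of extension to snRNA depth was tested where a copy had snRNA reads in all 6 libraries and extension reads in at least 3, which 36 of 75 copies met, 8 of them U1. limma with Benjamini-Hochberg adjustment over the 36 called 7 of the 8 higher in the labelled knockdown, where 75.0% of all copies tested were called higher, so the U1 share is near the background. Because wild type extensions are mostly at 0, the labelled knockdown libraries decide which copies meet this filter, and the count says little about U1 as a whole. Where a wild type extension is at 0, the ratio there rests on the added 1 and the snRNA depth alone. The log2 difference then also carries that of the snRNA. For atU1-12p these were 5.60 in the extension and −2.56 in the snRNA. The adjusted p of single copies carry both limits. atU1-7 had a log2 difference of 7.10 (SE 1.45, limma with Benjamini-Hochberg adjustment, adjusted p = 0.00608). atU1-5/U1A had one of 11.74 (SE 2.75) and atU1-3 one of 9.11 (SE 2.12), both with a limma adjusted p of 0.00888 after Benjamini-Hochberg adjustment. atU1-9, atU1-2 and atU1-6 had 6.17 (SE 1.49), 8.14 (SE 2.41) and 7.63 (SE 2.38), with limma adjusted p (Benjamini-Hochberg) of 0.00986, 0.0210 and 0.0240. atU1-12p had 8.17 (SE 0.96, limma with Benjamini-Hochberg adjustment, adjusted p = 7.40e-04), and atU1-10 was not called (3.49, SE 4.01, adjusted p = 0.427). Without the filter, over all 75 copies, 6 U1 copies were called: atU1a was added, and atU1-2 and atU1-6 were lost (limma with Benjamini-Hochberg adjustment, adjusted p = 0.0778 and 0.0840). The calls of atU1-2 and atU1-6 were also lost without labelled knockdown 3. Without wild type 1 and labelled knockdown 3, the calls were atU1-3, atU1-5/U1A, atU1-7 and atU1-12p.

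Summed extension depths differed with position relative to a U4 copy, a grouping made after the values had been seen and not tested. The 5 non-pseudogene copies with a U4 behind them had summed extensions of 352, 346 and 106 in the labelled knockdown, against 60, 0 and 21 in wild type. The other 5 had 5687, 9691 and 3724, against 108, 109 and 271 in wild type. Their snRNAs differed in the same direction, at 97351, 182847 and 3100 in the labelled knockdown with a U4 behind and 923776, 1634039 and 42883 without. As a percent of snRNA depth, the extensions stood at 0.362%, 0.189% and 3.42% in the labelled knockdown where a U4 follows, and at 0.616%, 0.593% and 8.68% where none does. In wild type they stood at 0.451%, 0 and 0.00464% where a U4 follows, and at 0.0146%, 0.00298% and 0.00920% where none does. As a sum, the set with a U4 behind was lower in each labelled knockdown library and in wild type 2 and 3, and higher in wild type 1. Single copies did not all keep this order. Per base in labelled knockdown 1, atU1-10 (11.3%) and atU1-9 (5.11%), with a U4 behind, exceeded all copies without one but atU1-2 (11.6%). There atU1-4 (0) and atU1-8 (0) lay below every copy without a U4 behind it. atU1a (0.738%) lay below atU1-7 (1.65%) but above atU1-6 (0.595%), both without one. atU1-10 was at 0 in labelled knockdown 2 and the highest copy, at 74.1%, in labelled knockdown 3. Of the U4 copies behind them, atU4.1 (after atU1a) had 622, 887 and 353 in its own extension in the labelled knockdown, against 0, 0 and 3 in wild type. The other 4 were lower: atU4-7 had 0, 151 and 138 in the labelled knockdown, against 3, 12 and 0 in wild type, and atU4-6 had 3, 50 and 325, against 0, 8 and 0 in wild type. atU4-5 had 22, 44 and 0 and atU4-8 had 51, 275 and 0 in the labelled knockdown, with wild type at 0 for both. In these 4 the groups overlapped. The 5 non-pseudogene copies whose extensions did not overlap between the groups (atU1-2, atU1-3, atU1-5/U1A, atU1-6 and atU1-7) have no U4 behind them. Because the grouping followed these values, that split is no test of it. Over all families 24 of 75 extensions did not overlap in this direction. The set without a U4 also had the deeper summed snRNA in each library, and the part of depth in the split was not tested.

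Genes behind U1 copies were read from the authors' deposited table, and 0 of them were called at q under 0.05, where 12.7% of all tested genes were called higher and 9.78% lower. With so few genes tested, 0 calls is near that background. Of 5 genes that start within 2 kb after a U1 copy on the same strand, 3 were in that table and 2 were tested. AT5G25770, 679 bp after atU1-4, stood at 4.25 FPKM in the labelled knockdown and 3.12 FPKM in wild type (the authors' deposited table, q = 0.291). AT4G16650, 1012 bp after atU1-11p, stood at 13.2 FPKM in the labelled knockdown and 14.2 FPKM in wild type (the authors' deposited table, q = 0.657). AT5G51680, 397 bp after atU1-3, was listed without a test, at 0.748 FPKM in the labelled knockdown and 0.738 FPKM in wild type (the authors' deposited table). Within 5 kb, 7 genes were tested and 0 called, with a lowest q of 0.174 in the authors' deposited table. No tested gene lies within 2 kb after the 3 copies with most extension depth.

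Proteins of the U1 particle were also read from the authors' deposited table, where 12.7% of 18038 tested genes were called higher and 9.78% lower at q under 0.05. Of 11 U1 snRNP proteins, 0 were called in either direction, with a median log2 ratio of 0.00, equal to that over all tested genes at 2 decimals. U1-70K, the protein that binds the first stem-loop of U1, stood at 30.3 FPKM in the labelled knockdown and 27.9 FPKM in wild type (the authors' deposited table, q = 0.562). U1A, which binds the second stem-loop, stood at 20.9 FPKM in the labelled knockdown and 18.5 FPKM in wild type (the authors' deposited table, q = 0.446). Of 13 genes for the Sm core that all spliceosomal snRNPs of this kind share, 3 were called higher and 0 lower, with a median log2 ratio of 0.37. smB stood at 66.2 FPKM in the labelled knockdown and 36.0 FPKM in wild type (the authors' deposited table, q = 6.39e-04). SNRNP-G stood at 39.3 FPKM in the labelled knockdown and 23.4 FPKM in wild type (the authors' deposited table, q = 6.39e-04). SmD3 stood at 13.3 FPKM in the labelled knockdown and 9.02 FPKM in wild type (the authors' deposited table, q = 0.0225).

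Factors of snRNA transcription and 3′ end formation made a list of 8, of which 7 were tested, with a median log2 ratio of 0.08. CPL4 itself was the 1 called higher, and 0 were called lower, where 12.7% of all tested genes were called higher and 9.78% lower. With 7 tested, these counts are near that background. The CPL4 FPKM does not tell reads of the gene from any reads of the construct. SRD2, the subunit of the complex that activates snRNA promoters, stood at 0.685 FPKM in the labelled knockdown and 1.23 FPKM in wild type (the authors' deposited table, q = 0.0661). DSP1, a scaffold protein of plant snRNA 3′ end cleavage annotated as EMB1895, stood at 1.49 FPKM in the labelled knockdown and 1.70 FPKM in wild type (the authors' deposited table, q = 0.569). CPSF73-I, an endonuclease of 3′ end cleavage, stood at 18.9 FPKM in the labelled knockdown and 15.3 FPKM in wild type (the authors' deposited table, q = 0.0934). CPSF73-II, a related subunit, was at 0.504 FPKM in the labelled knockdown and 0.754 FPKM in wild type (the authors' deposited table) and was not tested.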

How the data were processed

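The authors deposited a signal, the summed read depth that SAMtools bedcov gives per region and library, as whole numbers with no scaling. They also deposited 1 FPKM value per genotype and gene, with a p-value and a q-value, in the Cuffdiff layout per the file headers. Low sums are few reads: a read across a whole extension adds 50. Tools in the submitters' processing notes are TopHat2 2.0.14, Cuffdiff 2.2.1.3, Trim Galore 0.4.0, SAMtools and CASAVA 1.8.2, with the build TAIR10. The sources used here do not give strand marking, library totals or the placement of reads with several matches. The table of transcription start groups was not used. atU5-13 was left out of library sums after its values were seen.

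Regions were tested with limma 3.58.1 (R 4.3.3) with genotype as the 1 term, on unscaled log2(depth + 1) of all 150 regions, called at a Benjamini-Hochberg adjusted p under 0.05. On that scale the difference of a region at 0 in some libraries depends on the number added. For the atU1-12p extension it was 5.60 with 1 added, 2.53 with 10 and 0.97 with 50. The ratio test used log2(extension + 1) minus log2(snRNA + 1). Sums were described, with no test. The code was tested on simulated data. Deviations of same-numbered libraries from their group means correlated little (0.0707, 0.0337 and 0.0293 over 123 regions), so numbers were not taken as pairs. These were above the other pairings, which ran from −0.06 to 0.0154. Such a correlation cannot see a shift common to all regions of a library. All U1 copies are named, genes over or within 2 kb after them, and called list members. Log2 ratios of genes were recomputed from the deposited FPKM.

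Sequences are RefSeq TAIR10.1 read at the files' TAIR10 coordinates. As a check of these, all 10 non-pseudogene U1 copies end in the same 7 bases. By coordinates alone, which does not check the build, all 75 extensions are the 50 bases after their snRNA. Motifs were searched on both strands. Members, gene lists and tests were chosen with earlier results of these data known. Python 3.11.15, pandas 2.3.3, numpy 2.4.6, pysam 0.24.0, Biopython 1.88 and matplotlib 3.10.9 were used. Alternatives were pseudocounts of 10 and 50, a depth filter of 50 in 3 libraries, both scalings, no filter on the ratio test, a replicate block, an intensity trend and each library left out.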

Additional observations from a re-analysis of the deposited data

How the results depend on the processing

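Over the settings tried, 1 of them chosen after the data were seen (wild type 1 and labelled knockdown 3 both left out), no called region, count of calls or summed ratio reversed its direction. The uncalled non-pseudogene snRNA differences, all 10 negative without scaling, turned positive for 4 copies with median-ratio scaling and for 6 with scaling by summed snRNA depth. The 4 U1 extension calls were 3 to 4 with each library left out. With the replicate number as a block, although numbers were not taken as pairs, the U1 extension calls were 2 and the snRNA calls 0. The 1 snRNA call became 0 with median-ratio scaling, with scaling by summed snRNA depth and with both libraries left out, and ran from 0 to 1 with each left out. Scaling moved the median log2 difference of all snRNA regions from −1.95 to −0.24 (median ratio) and 0.00 (summed depth), and that of all extensions from 2.10 to 3.32 and 3.39. The 7 ratio calls were 5 to 7 with each library left out, 4 with both left out, 7 under the block, and 6 with no filter, where atU1-2 and atU1-6 were not called and atU1a was. The summed extension ratio of 35.0 was 17.7 without atU1-5/U1A, 105 and 143 under the 2 scalings, and 26.02 to 47.91 with each library left out. The summed snRNA ratio of 0.343 ran from 0.190 to 0.506 with each library left out. The ratio of 283 for extension as percent of snRNA ran from 51.3 to 566, and was 51.3 without labelled knockdown 3. The cause of these moves was not tested. Over all settings, single-region results stayed on their side of the threshold in 163 cases, lost their call in 25 and gained one in 6. Wild type extensions hold so few reads that their folds are loose.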
